A study of Mus musculus with 2 samples.

Results

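Fatty acid binding proteins and the genes of triglyceride synthesis and lipoprotein assembly were followed across 12 cell clusters of the irradiated mouse colon. The genes were taken by symbol from a list of 10: Fabp1, Fabp2, Fabp5, Fabp6, Apob, Mttp, Apoa1, Apoa4, Dgat1 and Dgat2. Of these, 8 had a row among the 17044 gene symbols of the table; Apoa1 and Apoa4 were not analysed here. The cells were colon epithelium of wild-type C57BL/6 mice taken 2 weeks after irradiation, in 1 group with 2 libraries, and the title names radiation proctitis and the transplantation of colonoids, which are cultured organoids of colon crypts. No unirradiated or untransplanted group was analysed here, and the labels do not say which cells come from a graft or how many mice were used. Each value is the authors' mean over the cells of a cluster, in UMIs (unique molecular identifiers, 1 per captured RNA molecule) per 10000 UMIs of a cell. Each column is a cluster and none carries a library's name, so both libraries were read as merged and values stand without replicates. Clusters could not be tested against each other: differences are described by their size, beside 95% Poisson intervals for counting error alone.

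Absorptive cells of the gut take up fatty acids from the lumen and bind them to small cytosolic carriers of the FABP family. In the endoplasmic reticulum, acyl-CoA:diacylglycerol acyltransferases (Dgat1 and Dgat2) add the last acyl chain of a triglyceride. The microsomal triglyceride transfer protein (Mttp) then loads that lipid onto apolipoprotein B (Apob), the scaffold of chylomicrons, which are exported with Apoa1 and Apoa4. This route is best known from the small intestine. Bile acids, which emulsify dietary fat, are recovered mainly in the ileum, where Fabp6 is the cytosolic bile acid carrier.

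The low values of the table gave the number of cells behind each mean, 3082 in all and from 482 in cluster 0 to 19 in cluster 11. The UMI totals of 2287 of these cells (74.2%) could be read, with medians from 1430 UMIs in cluster 5 to 19522 in cluster 7. Clusters 8 and 9 are called absorptive colonocyte-like here, although their lists differ in strength: 5 of 9 markers were highest in cluster 8 and 2 of 9 in cluster 9, where none was among the top 10 genes by fold over the highest other cluster and Guca2a was among the top 10 over the mean of the others. Cluster 5 was neutrophil-like (5 of 6 markers highest), cluster 11 enteroendocrine-like (6 of 6), cluster 0 goblet-like (8 of 8) and cluster 7 proliferating-like (6 of 6), and the others are given by number. Epcam, an epithelial surface gene, lay between 14.9 and 37.6 in 10 clusters and at 3.83 and 2.89 in clusters 5 and 10. Ptprc, the pan-leukocyte gene, stood at 3.69 and 1.78 there and at most 0.0827 elsewhere. The genes used for clustering are not known here and may include those described, so a gene that sets a cluster apart is given as a description of that cluster.

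The 8 genes did not share a pattern. A gene was called leading where its level reached 1 per 10000 and, with 0.1 added to each level, was no less than 2-fold that of the runner-up cluster. Of the 8 genes, 3 led a cluster: Fabp2 led cluster 9, Fabp5 cluster 11 and Dgat1 cluster 5. Of all 17044 genes, 4.5% led a cluster, and of the 3276 that reached 1 per 10000 anywhere, 23.4% did. Only 4 of the 8 genes reached that level. Across the 12 clusters, Pearson's r between pairs of the 8 genes ran from -0.46 to 0.58 over 28 pairs, on the log2(level + 0.1) scale. The clusters share libraries, so these correlations are a description.

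**Figure D1:**
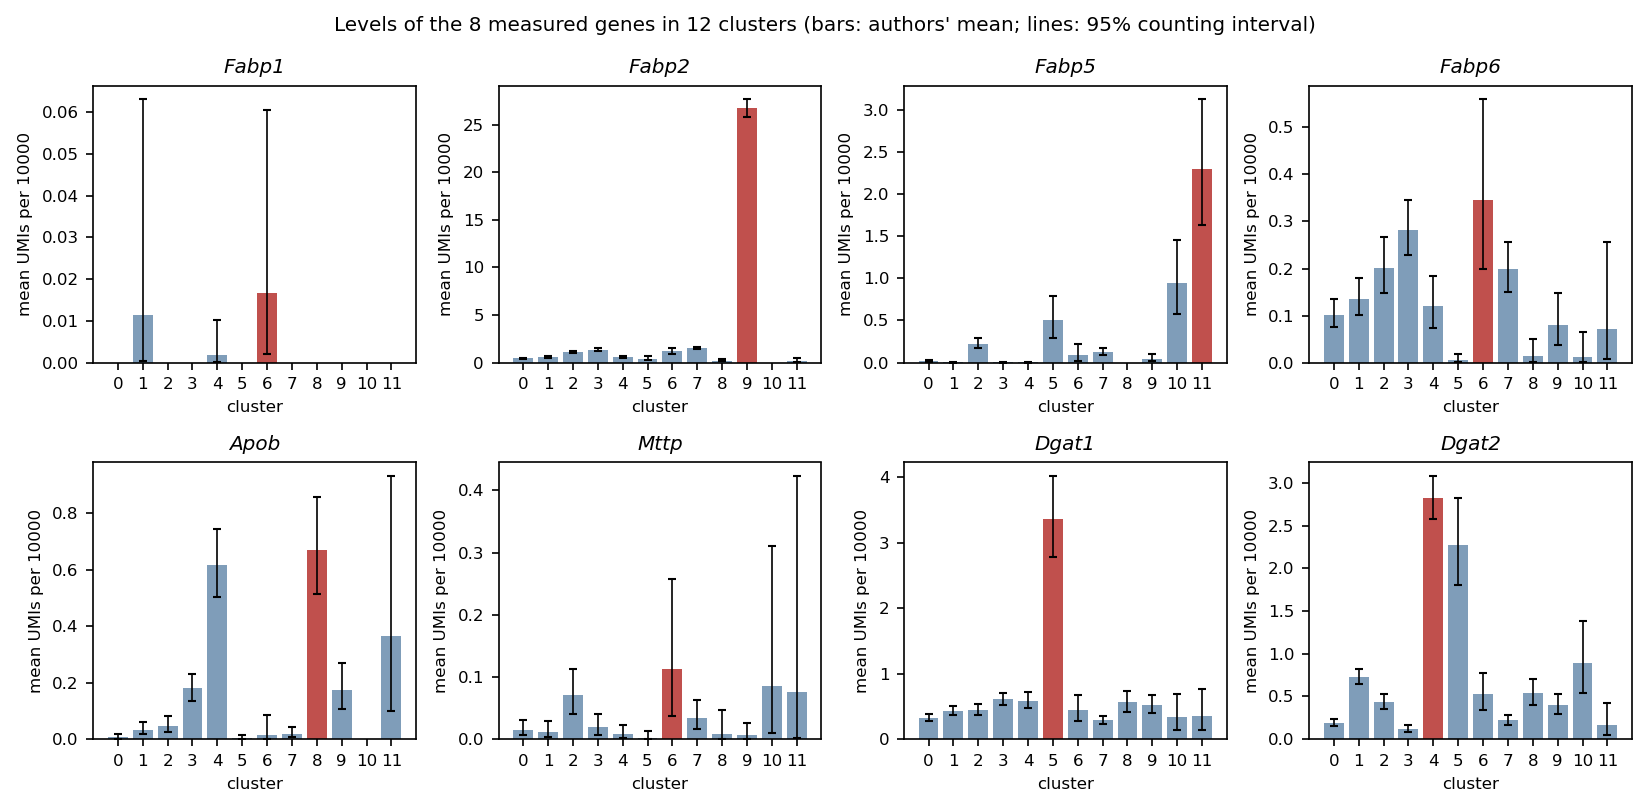
Mean level of each of the 8 measured genes (y axis, UMIs per 10000, a scale of its own per gene) in clusters 0 to 11 (x axis). Bars are the authors' means, black lines the 95% counting interval, the highest cluster is red, and a cluster listed at 0 has no bar; Fabp2 peaks at 26.7 in cluster 9 and Dgat1 at 3.36 in cluster 5.

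Fabp2, the intestinal fatty acid binding protein, was the gene that set cluster 9 apart most: it ranked 1 of 17044 genes there by fold over the highest other cluster and over the mean of the other clusters. The gene lies at chr3:122895072-122899506 on the plus strand (GRCm38, GENCODE M21). Its level in cluster 9 was 26.7 per 10000 (25.8 to 27.7), from about 3188 UMIs in 168 cells. Clusters 7, 3, 6 and 2 followed at 1.52, 1.37, 1.22 and 1.13, with overlapping intervals between neighbours. Clusters 1, 4, 0 and 5 lay at 0.565, 0.559, 0.467 and 0.420, and cluster 8 at 0.212 and cluster 11 at 0.129. Cluster 10 was listed at 0, where 3 UMIs would allow up to 0.139. Cluster 9 thus stood 17.5-fold above cluster 7, the next in order, and held 65.8% of the Fabp2 level summed over all cells. The value of the neutrophil-like cluster 5, a cell type that should lack Fabp2, was 0.420 (0.234 to 0.695), from about 15 UMIs. The intervals of clusters 2, 3, 6 and 7 lay above it, and those of clusters 0, 1, 4 and 8 overlapped it. Cluster 10, the other cluster with leukocyte genes, was at 0 (up to 0.139). The source of the Fabp2 UMIs in cluster 5 was not tested. The antisense gene 4933405D12Rik covers the whole of Fabp2, and its highest level was 0.0135, in cluster 7.

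The genes whose levels followed Fabp2 most closely over the 12 clusters included Cdx2 (Pearson's r 0.91, Spearman's rho 0.78) and Tfrc (0.91 and 0.92). Cdx2, the homeobox regulator of intestinal identity, reached 3.43 in cluster 9 (3.11 to 3.78), with cluster 7 next at 0.853. Tfrc, the transferrin receptor, reached 1.14 there, with cluster 6 next at 0.597. Both were highest in cluster 9, which follows largely from picking them by correlation with Fabp2 over the same clusters.

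Promoters from RefSeq (GRCm38.p6) were found for 5 of the 8 genes: Fabp1, Fabp2, Fabp6, Apob and Mttp. The 250 bases before the RefSeq start are shown for the binding proteins Fabp2, Fabp6 and Fabp1, because their patterns over the clusters differ. Fabp2 led cluster 9, Fabp6 led none and Fabp1 was listed at 0 in 9 clusters. Capitals mark every match, on either strand, to the TATA box (TATAAA) or to a CDX motif (TTTATNG). They lie at chr3:122894822-122895071 (plus strand), chr11:43601563-43601812 (minus strand) and chr6:71199629-71199878 (plus strand), and read 5′ to 3′ on the gene's strand.
Fabp2: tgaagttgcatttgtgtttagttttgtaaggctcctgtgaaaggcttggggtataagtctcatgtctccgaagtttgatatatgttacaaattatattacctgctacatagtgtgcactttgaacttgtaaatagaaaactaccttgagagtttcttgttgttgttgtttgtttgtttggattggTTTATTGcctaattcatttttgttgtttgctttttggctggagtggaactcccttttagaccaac
Fabp6: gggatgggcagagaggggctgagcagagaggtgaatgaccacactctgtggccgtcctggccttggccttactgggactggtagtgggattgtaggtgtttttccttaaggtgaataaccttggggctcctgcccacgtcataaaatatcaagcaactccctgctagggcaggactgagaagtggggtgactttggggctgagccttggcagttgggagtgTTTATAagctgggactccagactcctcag
Fabp1: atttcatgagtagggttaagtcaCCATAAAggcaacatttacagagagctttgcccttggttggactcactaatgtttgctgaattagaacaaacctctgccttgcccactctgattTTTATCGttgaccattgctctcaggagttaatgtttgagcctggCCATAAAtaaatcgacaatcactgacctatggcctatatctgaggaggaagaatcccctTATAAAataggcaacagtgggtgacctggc

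Fabp2 had 1 CDX match (TTTATTG, 65 to 59 bases before the start) and no match to TATAAA. Fabp1 had 3 CDX matches and a TATA box 30 to 25 bases before its RefSeq start. The GENCODE M21 start of Fabp1, at 71199827, lies within this window, and by that start the TATA box is inside the gene. Fabp6 had a TATA box match at 29 to 24 bases on the strand opposite to the gene (TTTATA as printed). Among all 32851 promoters of the table, 9.81% held a CDX match and 12.4% a TATA match in the same 250 bases. None of the 5 held CAAAGTCCA, the letters searched for HNF4 factors (0.384% of promoters have them). None held AGATAA, those searched for GATA factors (9.99%). Apob had a TATA box 60 to 55 bases before the start, overlapping a CDX match on the other strand at 61 to 55, and Mttp had no match. By GENCODE M21 positions, the Apob window reaches into the gene and the Mttp window lies inside it. A match is a string of letters and not a shown binding site.

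Fabp6, the ileal bile acid carrier (chr11:43596049-43601540, minus strand), was low in every cluster and had no single high one. It was highest in cluster 6, at 0.345 per 10000 (0.198 to 0.560), followed by cluster 3 at 0.283 (0.228 to 0.347), cluster 2 at 0.201 and cluster 7 at 0.198. Clusters 1, 4, 0, 9 and 11 lay at 0.136, 0.120, 0.102, 0.0794 and 0.0710. No interval of a cluster was apart from that of its neighbour in this order. Cluster 6 also had the highest listed values of Mttp, from about 5 UMIs, and of Fabp1, from 2 UMIs in 1 cell. Neither interval was apart from that of the next cluster, so a shared peak of the 3 genes is not shown. Cluster 6 had a median of 2505 UMIs and markers of several cell types. All 3 measured tuft markers and 3 of 4 B and plasma cell markers were highest there, with summed levels of 2.16 and 26.4. Its enteroendocrine and mast cell markers summed to 19.8 and 4.18, and their part in the Fabp6, Mttp and Fabp1 values was not tested. In the absorptive colonocyte-like cluster 8 the Fabp6 level was 0.0139 (0.00168 to 0.0502), from 2 UMIs in 2 cells. The computed interval lay below those of clusters 0, 1, 2, 3, 4, 6 and 7, but it scales with the depth of those 2 cells. Cluster 8 is therefore not set apart from clusters 0 and 4, whose lower bounds were nearest, at 0.0757 and 0.0739. Clusters 10 and 5 were at 0.0118, from 1 UMI in 1 cell, and 0.00528, from 2 UMIs in 2 cells. By rank, Fabp6 followed Fabp2 more than any other of the 8 genes did (Spearman's rho 0.71, Pearson's r 0.42).

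Fabp1, the liver-type fatty acid binding protein (chr6:71199827-71205023, plus strand), was close to absent. It was listed at 0 in 9 clusters, cluster 9 among them, where 3 UMIs would allow up to 0.0252 per 10000. In cluster 1 its level of 0.0113 was 1 UMI in a cell of 2218 UMIs. In cluster 4 the level of 0.00183 was 1 UMI in a cell of 16881 UMIs, and in cluster 6 the level of 0.0168 was 2 UMIs in a cell of 4751 UMIs. The clusters could not be ordered for Fabp1 at this depth.

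Fabp5, the epidermal-type fatty acid binding protein (chr3:10012548-10016607, plus strand), was mainly found outside the absorptive cells. It was highest in the enteroendocrine-like cluster 11, at 2.29 per 10000 (1.64 to 3.13) from about 40 UMIs in 19 cells. Cluster 10, which carries leukocyte genes, followed at 0.947 (0.582 to 1.46) and the neutrophil-like cluster 5 at 0.501 (0.295 to 0.796). Cluster 2 was at 0.225 (0.169 to 0.293), cluster 7 at 0.123, cluster 6 at 0.0878, cluster 9 at 0.0409 and cluster 0 at 0.0134. In clusters 1, 3 and 4 the values of 0.00195, 0.00156 and 0.00170 were 1 UMI of 1 cell each, and cluster 8 was listed at 0 (up to 0.0322). The step from cluster 11 to cluster 10 exceeded both counting intervals and was 2.42-fold. With a pseudocount of 1 or a limit of 4-fold, Fabp5 led no cluster. In cluster 2 the 6 neutrophil markers summed to 32.6 per 10000, against 0.387 to 13.6 in the other clusters outside cluster 5, where they summed to 913. The part of neutrophil RNA in the Fabp5 level of cluster 2 was not tested.

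The genes most like Fabp5 were Anxa6 (Pearson's r 0.94, Spearman's rho 0.92), Id2 (0.94 and 0.72) and Arl3 (0.93 and 0.75). Anxa6, a calcium-dependent membrane binding annexin, had levels of 1.20 and 0.709 in clusters 11 and 10. Id2, an inhibitor of basic helix-loop-helix factors, was at 10.1 and 5.05, and Arl3, a small GTPase of cilia, at 1.95 and 0.491. In each, clusters 11 and 10 were the highest and the next, as for Fabp5. That follows largely from picking these genes by correlation with Fabp5 over the same clusters.

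**Figure D2:**
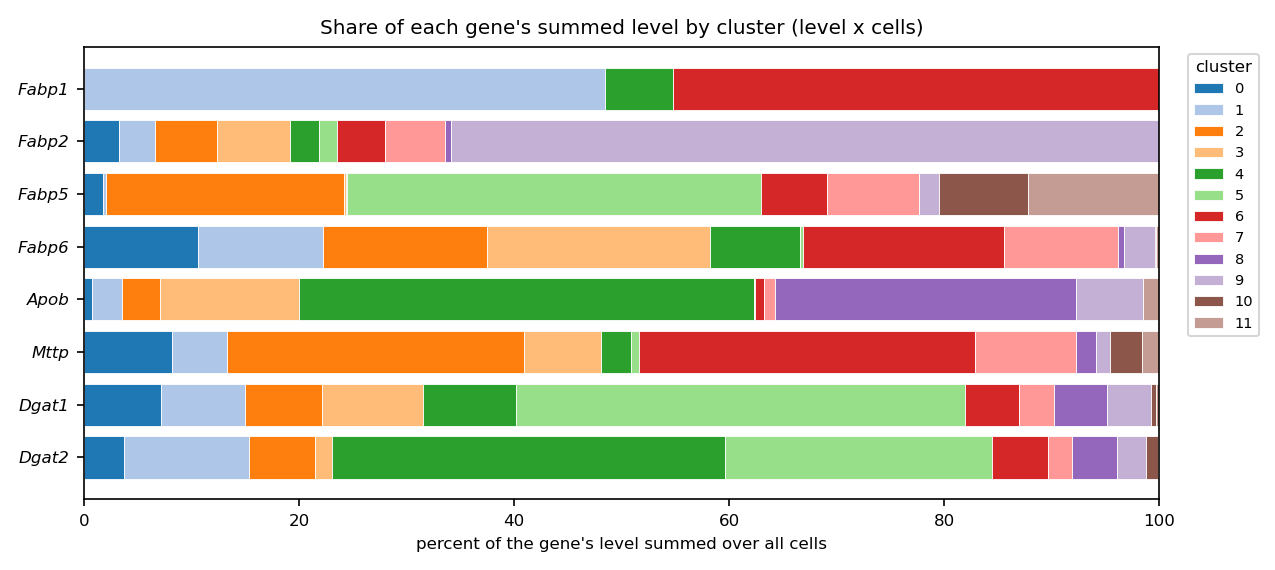
Share of each gene's level that each cluster holds (x axis, percent of the level times the number of cells, summed over all 3082 cells), 1 bar per gene and 1 colour per cluster. Cluster 9 holds 65.8% of Fabp2, cluster 5 holds 41.8% of Dgat1 and 38.5% of Fabp5, and cluster 4 holds 42.3% of Apob and 36.5% of Dgat2; the bar of Fabp1 rests on 4 UMIs.

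Apob, the scaffold protein of chylomicrons (chr12:7977648-8016835, plus strand), was highest in clusters 8 and 4. Its level was 0.670 per 10000 in cluster 8 (0.514 to 0.858) and 0.615 in cluster 4 (0.504 to 0.743), and these intervals overlap. Cluster 11 was at 0.364, from 4 UMIs in 2 of its 19 cells. Clusters 3 and 9 were at 0.179 (0.136 to 0.231) and 0.175 (0.108 to 0.268), below both leading clusters. Clusters 2, 1, 7, 6 and 0 were at 0.0469, 0.0337, 0.0187, 0.0154 and 0.00703. The value of 0.00247 in the neutrophil-like cluster 5 was 1 UMI in a cell of 14796 UMIs, in a cluster with a median of 1430, and cluster 10 was listed at 0. Against the mean of the other clusters, Apob was 1.73 log2 units higher in cluster 8 and 1.59 higher in cluster 4.

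Mttp, the lipid transfer protein that loads Apob (chr3:138089854-138144968, minus strand), was not high where Apob was. It was at 0.00850 per 10000 in cluster 8, from 1 UMI in a cell of 5974 UMIs, and at 0.00789 in cluster 4, from 3 UMIs in 3 cells. Its highest values were 0.112 in cluster 6 (0.0375 to 0.257), 0.0859 in cluster 10, 0.0761 in cluster 11 and 0.0705 in cluster 2 (0.0410 to 0.113). The values of clusters 10 and 11 were 2 UMIs in 2 cells and 1 UMI in 1 cell. Clusters 7, 3, 0 and 1 were at 0.0340, 0.0189, 0.0152 and 0.0117, cluster 9 at 0.00712 from 2 UMIs in 2 cells, and cluster 5 at 0.00246 from 1 UMI. The interval of cluster 2 lay above those of clusters 0, 1 and 3, and it overlapped that of cluster 8. The computed intervals of clusters 4, 5 and 9 also lay below it, but they scale with the depth of the few cells that held a UMI. In cluster 5 that was 1 cell of 14818 UMIs. The upper bound of 0.0137 there is under the 0.0852 that 0 UMIs would allow. Cluster 2 can therefore not be set apart from clusters 4, 5 and 9. Trmt10a, on the opposite strand, overlaps Mttp by 1521 bases and was at most 0.107, in clusters 10 and 7. Whether counting used the strand is not given in the sources used here, so reads of the shared stretch cannot be assigned.

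Dgat1, the first of the acyltransferases (chr15:76502015-76511953, minus strand), was highest in the neutrophil-like cluster and at 0.290 to 0.608 per 10000 in all others. In cluster 5 it was at 3.36 per 10000 (2.78 to 4.02), from about 118 UMIs in 274 shallow cells. Cluster 3 was next at 0.608 (0.526 to 0.699), a 5.53-fold step, followed by cluster 4 at 0.586, cluster 8 at 0.560 and cluster 9 at 0.526. Clusters 2, 6, 1, 11, 10, 0 and 7 lay at 0.450, 0.439, 0.431, 0.356, 0.342, 0.329 and 0.290. The step below cluster 5 was the only place in this order where neighbouring intervals did not overlap, although clusters further apart did differ, as cluster 3 from cluster 7 (0.231 to 0.360). Cluster 10, the other cluster with leukocyte genes, was at 0.342 (0.141 to 0.692), within the range of the other clusters. Cluster 5 held 41.8% of the summed Dgat1 level, and its 6 neutrophil markers summed to 913 per 10000. Of these 6, only Ly6g was not highest there, at 0.603 against 8.19 in cluster 8.

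The genes most like Dgat1 by Pearson's r were Cxcr2 (0.94), Stfa1 (0.94) and Gm37691 (0.93), and their rank correlations were only 0.34, -0.15 and 0.32. Cxcr2, the neutrophil chemokine receptor, was at 3.41 per 10000 in cluster 5 and at most 0.0575 elsewhere, and Stfa1, a stefin of myeloid cells, at 1.15 and at most 0.00523. Outside cluster 5, Dgat1 had levels from 0.290 to 0.608.

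Dgat2, the other acyltransferase (chr7:99153658-99182719, minus strand), was high in cluster 4 and in cluster 5. Its level was 2.83 per 10000 in cluster 4 (2.58 to 3.09), from about 493 UMIs, and 2.27 in cluster 5 (1.80 to 2.83), and these intervals overlap. Cluster 10 at 0.888 (0.535 to 1.38) and cluster 1 at 0.733 (0.647 to 0.827) followed, then clusters 8, 6, 2 and 9 at 0.537, 0.527, 0.435 and 0.398. Clusters 7, 0, 11 and 3 were lowest, at 0.222, 0.193, 0.165 (4 UMIs in 4 cells) and 0.120. With clusters 5 and 10 left out, Dgat2 led cluster 4, at 1.81 log2 units over cluster 1. In cluster 4 the 6 neutrophil markers summed to 6.37, of which Ly6g gave 5.66, and Csf3r was listed at 0 and Cxcr2 at 0.00282. Dgat1 in cluster 4 was at 0.586, within the range of the clusters other than cluster 5.

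The genes most like Dgat2 were Oasl2 (Pearson's r 0.94, Spearman's rho 0.86), Stk17b (0.91 and 0.93) and Casp4 (0.89 and 0.76). Oasl2, an interferon-induced gene, had levels of 1.59 and 1.39 in clusters 4 and 5, Stk17b, a serine/threonine kinase, at 1.67 and 2.47, and Casp4, an inflammatory caspase, at 0.673 and 1.10. In all 3, as in Dgat2, clusters 4 and 5 were the top pair. They were picked by correlation with Dgat2 over these same clusters, so the shared pair follows largely from that choice.

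**Figure D3:**
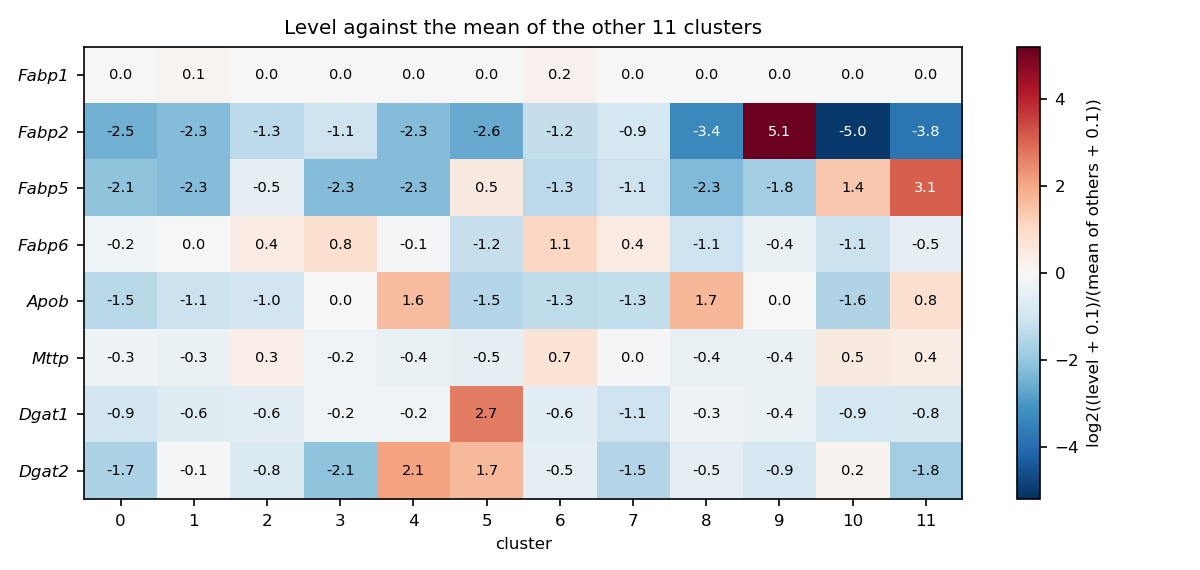
Log2 of each level over the mean of the other 11 clusters, with 0.1 added to both (red higher, blue lower), for the 8 genes (rows) in clusters 0 to 11 (columns). Of 96 squares 9 are at least 2-fold higher, with Fabp2 in cluster 9 at 5.09 the highest, and Fabp2 is 2-fold or more lower in 10 columns, whose comparison mean includes cluster 9.

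Set against the mean of the other clusters, 9 of the 96 pairs of gene and cluster lay 2-fold or more above it and 32 lay 2-fold or more below. In cluster 4, 2 of the 8 genes (Apob and Dgat2) were higher, where 3.26% of all genes were, and 2 (Fabp2 and Fabp5) lower, where 7.29% were. Cluster 5 had 2 higher (Dgat1 and Dgat2, beside 5.13% of all genes) and 3 lower (Fabp2, Fabp6 and Apob, beside 19.4%). Cluster 9 had 1 higher (Fabp2, beside 1.21%) and 1 lower (Fabp5, beside 5.09%), and the median over the 8 genes was -0.38, against -0.06 over all genes. Cluster 8 had 1 higher (Apob, beside 3.7%) and 3 lower (the FABP genes other than Fabp1, beside 9.41%). Fabp5 was the higher gene in cluster 11 (11.1% of all genes) and cluster 10 (5.77%), where 2 and 3 genes were lower (9.08% and 13.2%). Fabp6 was the higher gene in cluster 6 (3.23%), with 3 lower (3.77%). At 1.08 log2 units, this Fabp6 call rests on about 16 UMIs. It fell below 2-fold with a pseudocount of 1 (0.28), the others weighted by cells (0.93) or clusters 5 and 10 left out (0.93). With a pseudocount of 0.01 it held, at 1.55. No gene was higher in clusters 0, 1, 2, 3 and 7, where 1.99%, 0.287%, 0.44%, 0.669% and 3.34% of all genes were. In the same clusters 4, 3, 1, 3 and 4 genes were lower, beside 5.48%, 3.81%, 3.44%, 4.98% and 5.05%. Fabp2 was among the lower genes in 10 clusters, whose comparison mean includes cluster 9.

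The absorptive colonocyte-like clusters 9 and 8 differed for 2 of the 8 genes, in opposite directions. Fabp2 was higher in cluster 9 by 6.43 log2 units, on the scale of level plus 0.1. Apob was lower there, by a log2 difference of -1.49 (0.175 against 0.670), with intervals apart; with a pseudocount of 1 it was within 2-fold. At a pseudocount of 0.1, intervals aside, 5.93% of all genes were at least 2-fold higher in cluster 9 and 3.75% in cluster 8. Among genes that reached 0.1 per 10000, the shares were 8.51% and 5.39%. The other 6 genes were within 2-fold, from -0.36 for Dgat2 to 0.66 for Fabp6, with overlapping intervals. Their levels were at most 0.560 in both clusters. For low genes this count depends on the pseudocount: with 0.01 in place of 0.1, Fabp5 and Fabp6 were also 2-fold higher in cluster 9. Fabp6 was at 0.0794 there (0.0372 to 0.148) and 0.0139 in cluster 8 (0.00168 to 0.0502), and these intervals overlap.

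**Figure D4:**
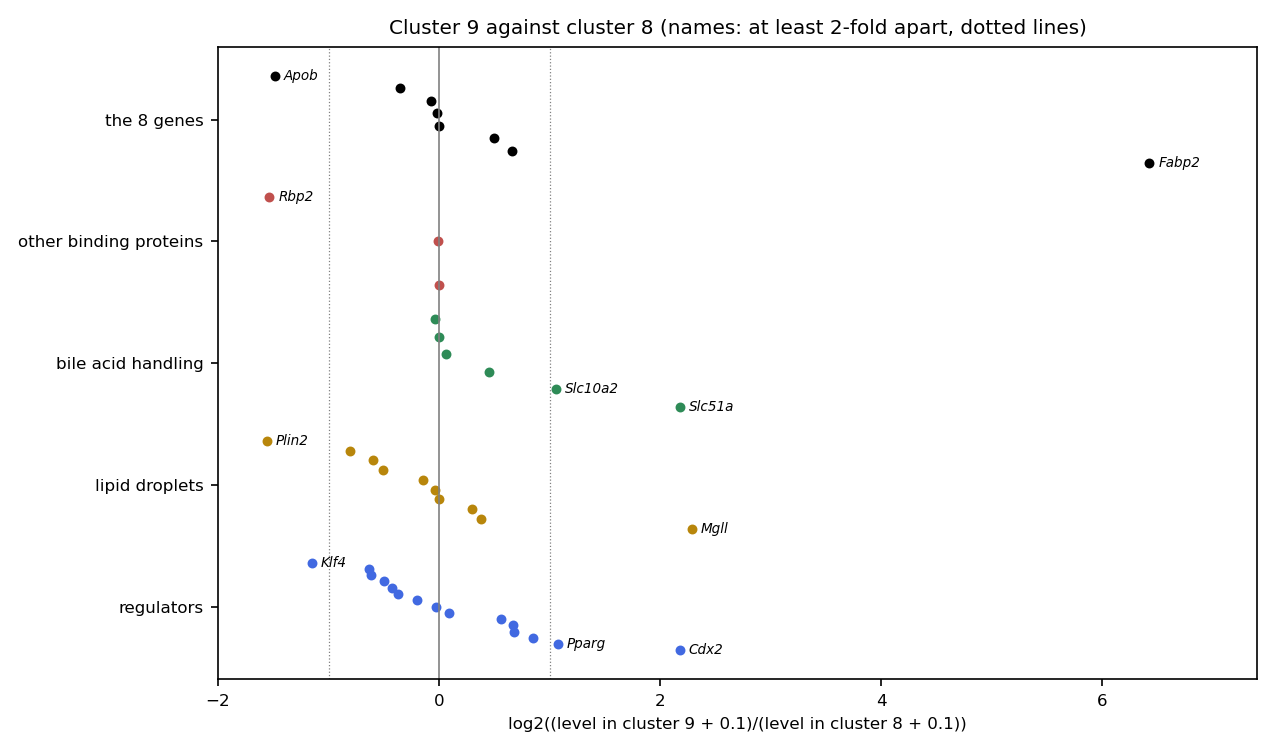
Log2 of the level in cluster 9 over that in cluster 8, with 0.1 added to both (x axis), 1 point per gene, in rows for the 8 genes and 4 lists of related genes; dotted lines mark 2-fold and genes beyond them are named. Fabp2 lies at 6.43, Mgll at 2.29, Slc51a at 2.18 and Cdx2 at 2.18, and Apob, Rbp2, Plin2 and Klf4 lie on the side of cluster 8.

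Around these genes, 93 of 108 listed genes of lipid and bile acid handling were measured, and 81 reached 0.1 per 10000 in at least 1 cluster. Of the 81, 4.94% led a cluster, against 6.46% of all genes past the same limit: Cdx2 led cluster 9, Rbp2 cluster 8, Apoe cluster 10 and Slc27a4 cluster 5. Any-cluster calls were common: 48.9% of all genes past the limit were 2-fold higher than the mean of the others somewhere. By cluster from 0 to 11, 4, 0, 1, 0, 5, 1, 5, 1, 10, 8, 4 and 14 of the 81 genes were higher, beside 2.87%, 0.413%, 0.632%, 0.961%, 4.69%, 7.37%, 4.64%, 4.8%, 5.31%, 1.74%, 8.29% and 15.9% of all genes. In the same order 9, 1, 5, 2, 3, 27, 3, 8, 5, 2, 24 and 20 were lower, beside 7.87%, 5.47%, 4.94%, 7.15%, 10.5%, 27.9%, 5.42%, 7.26%, 13.5%, 7.31%, 18.9% and 13.0%.

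Bile acid handling had its highest median in cluster 9, where 3 of 6 genes were at least 2-fold higher than the mean of the others and 0 lower, with a median of 1.20 against -0.13 over all genes past the limit (1.74% of which were higher). Slc51a, a subunit of the basolateral bile acid exporter, was at 0.354 per 10000 in cluster 9 (0.255 to 0.478) and at most 0.00497 elsewhere. Its partner subunit Slc51b was also highest in cluster 9, at 0.676 (0.536 to 0.841), followed by clusters 8 and 3 at 0.468 and 0.406. Slc10a2, the apical bile acid uptake carrier, reached 0.225 in cluster 9 (0.148 to 0.328), with cluster 8 next at 0.0557. Abcc3, a bile acid and conjugate exporter, was highest in clusters 8 and 9 (1.07 and 1.04), and Nr1h4, the bile acid receptor, was highest in cluster 4 at 0.566. Alpi, an alkaline phosphatase typical of small intestinal enterocytes, was at 0.276 in cluster 9 and at most 0.0382 elsewhere. The 7 measured small intestinal markers as a list summed to 8.05 in cluster 8 and 4.17 in cluster 9. Of these 7, 3 were highest in cluster 8 and 1 in cluster 9, where Anpep and Treh were listed at 0.

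Of the other relatives of the FABP family, 4 of 11 were measured. Rbp2, the cellular retinol binding protein of the gut, reached 3.09 per 10000 in cluster 8 (2.75 to 3.47), followed by clusters 4 and 9 at 1.37 and 1.002. Fabp3, the heart-type fatty acid binding protein, was at most 0.114, in cluster 11, under the 0.174 that 3 UMIs correspond to there. Among uptake genes, Slc27a4, the fatty acid transport protein and acyl-CoA synthetase of enterocytes, was highest in the neutrophil-like cluster 5, at 1.16 (0.832 to 1.58), against 0.484 in cluster 6. Scarb1 was at 0.371 and 0.344 in clusters 11 and 10, which have 19 and 31 cells, so their order is not shown. Got2 was highest in cluster 7 at 0.874, with cluster 9 next at 0.644. In cluster 5, 1 of 6 uptake genes was higher and 3 were lower than the mean of the others, against 7.37% and 27.9% of all genes past the limit.

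Acyl-CoA binding and triglyceride synthesis genes were spread widely. Dbi, the acyl-CoA binding protein, ranged from 2.05 in cluster 5 to 15.4 in cluster 9, and Acsl3 reached 1.69 in cluster 8 and Acsl5 0.810 in cluster 7. Of 10 triglyceride synthesis genes, 2 lay 2-fold or more above the mean of the others in cluster 11 (15.9% of all genes past the limit did) and 1 each in clusters 4, 6 and 9 (4.69%, 4.64% and 1.74%), with 0 lower in these 4. In cluster 5, 0 were higher and 6 lower (7.37% and 27.9%). Agpat4 was highest in cluster 4 at 1.89, Agpat2 in cluster 9 at 1.95 and Agpat5 in cluster 9 at 0.777. The high Dgat1 and Dgat2 of cluster 5 stood beside Agpat2 at 0.416 and Agpat4 at 0.375, which act at an earlier step. Of 10 lipid droplet genes, 2 each were higher in clusters 8 and 11 (5.31% and 15.9% of all genes) and 1 each in clusters 4, 6 and 9 (4.69%, 4.64% and 1.74%). None was lower in clusters 4, 8 and 9, 1 was in cluster 6 and 3 were in cluster 11 (10.5%, 13.5%, 7.31%, 5.42% and 13.0%). Plin2, a droplet coat protein, was at 3.52 in cluster 8, Cideb, a protein of droplet and lipoprotein growth, at 2.11 in cluster 4 and 1.71 in cluster 8, and Pnpla2, the main triglyceride lipase, at 1.28 in cluster 8. Of the lipoprotein assembly genes P4hb, the partner subunit of Mttp and a protein disulfide isomerase, was highest in the goblet-like cluster 0 at 6.00, Surf4 there too at 1.86, and Sar1b in cluster 11 at 1.37.

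Apoe, an apolipoprotein of macrophages, was at 47.2 per 10000 in cluster 10 (44.4 to 50.2), which has 31 cells and markers of several leukocyte types. There all 7 macrophage and dendritic markers were highest (summed level 306), as were all 5 T and NK cell markers (12.7) and 3 of 4 mast cell markers (194). Apoe was at 1.40 in cluster 5 and at most 0.115 elsewhere. Apobec1, the cytidine deaminase that edits Apob RNA to its short intestinal form, was highest in cluster 4 at 1.47 and next in cluster 8 at 0.741, which are also the top 2 clusters of Apob. Apoa2 reached 0.326 in cluster 11, which has 19 cells and where 3 UMIs correspond to 0.174. Of the regulators, Klf4 was at 10.8 in cluster 8, Klf5 at 6.78 in cluster 2 and Cdx1, the close relative of Cdx2, was highest in clusters 7, 2, 9 and 1, at 4.33, 4.19, 3.98 and 3.89. Among sterol genes, Nr1h2 reached 1.01 per 10000 in cluster 4, Soat1 0.566 in cluster 11 and Nr1h3 0.469 in cluster 10.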

How the data were processed

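The authors deposited, for the cells of 2 libraries from 1 group, a table of 17044 gene symbols by 12 clusters. Tools named in the submitters' processing notes are Cell Ranger 3.1.0 and Seurat 2.3, and the build is mm10. The annotation, filters, doublet treatment, strand setting and clustering resolution were not given in the sources used here. Values deposited by the authors are linear means of UMIs per 10000 UMIs of a cell, read from the values, since every column sums to 10000.

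A gene seen as 1 UMI in 1 cell has a mean whose quotient into 10000 equals cell number multiplied by the UMI total of that cell. Quotients whole within a relative tolerance of 1e-12 gave the number of cells per cluster, and totals found for at least 2 genes were accepted. A mean of under about 15 UMIs was resolved into whole UMIs of up to 4 cells with identified totals (relative tolerance 4e-13): 21 of 96 pairs of gene and cluster. Elsewhere UMIs are approximate, from the harmonic mean of the totals. Intervals are exact Poisson 95% on these numbers, and 0 allows up to 3 UMIs. They do not cover differences between cells or mice. The steps were tested on simulated cells.

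Folds used a pseudocount of 0.1, which understates low genes. Means hide how cells differ, fewer expressing cells and less RNA per cell cannot be told apart, and levels of different genes were not compared. Positions come from GENCODE M21. The genes, lists and rules were chosen with earlier results of these data known. The text names the 8 genes, per gene at 1 or more the 3 most correlated genes, and per list the 3 highest and any leading gene, of which 2 are not reported here; other names, and the promoters shown, were chosen after values were seen, since no 2 of the 8 genes led the same cluster. Python 3.11.15, numpy 2.4.6, scipy 1.17.1 and pandas 2.3.3 were used.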

Additional observations from a re-analysis of the deposited data

How the results depend on the processing

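The number of leading genes stayed between 2 and 3 under the 6 alternatives. It was 2 with a pseudocount of 1 and with a 4-fold limit (Fabp2 and Dgat1), and 3 otherwise. Of all genes, 4.5% led a cluster at the main settings. This share was 2.73% with a pseudocount of 1, 4.77% with 0.01 and 2.25% with a 4-fold limit. It was 11.6% with no limit on low levels, 2.93% without clusters 5 and 10 and 4.55% without cluster 6. Without clusters 5 and 10, Dgat2 took the place of Dgat1. Of the pairs of gene and cluster, 9 were 2-fold higher than the mean of the others. They became 4 with a pseudocount of 1, 14 with 0.01 and 5 of 80 without clusters 5 and 10. For these and the called genes and pairs below, the share of all genes at the alternative settings is not given. The 32 lower pairs became 7 with a pseudocount of 1, and Fabp5 in cluster 7 turned from -1.09 to 0.052 (log2) with the others weighted by cells. Between clusters 9 and 8, a pseudocount of 0.01 gave 3 genes higher in cluster 9 (Fabp2, Fabp5 and Fabp6) instead of 1. Of these, Fabp5 rests on about 5 UMIs in cluster 9 and is listed at 0 in cluster 8. Apob was not 2-fold higher in cluster 8 with a pseudocount of 1, giving 0, and the count was also 0 when restricted to genes at 1 or more in either cluster, a level Apob does not reach. For the lists, 53 higher and 109 lower pairs became 7 and 24 with a pseudocount of 1. Of the 12 most correlated genes, 2 were named by Spearman's rho and 1 without clusters 5 and 10, so these names depend on the measure and on those clusters. Where no reason is given, the cause was not tested. Median in place of harmonic mean totals left 9 neighbours apart instead of 8 of 88. No paired analysis was possible because there is 1 group and its libraries are pooled in every column.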
